A study of Mus musculus with 11 samples.

Results

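S100 proteins, annexins and galectins were followed here as a set of 10 genes across mouse CD4 T cells: S100a4, S100a6, S100a10, S100a11, Anxa1, Anxa2, Anxa5, Anxa6, Lgals1 and Lgals3. The genes were listed by family, not by their values in these samples, although earlier results of the same data were known when the list was drawn up. All probe sets of each gene were read, a probe set being the group of oligonucleotides on the array that reports 1 transcript, and the probe set with the highest mean over all arrays gave the gene's main value. Of the 10 genes 9 had at least 1 probe set of their own, among 18193 genes with such a probe set in the whole series. The only S100a11 probe set is also annotated to S100a11-ps and Gm12854, so no value is given for S100a11.

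The samples were 11 arrays of CD4 T cells that came out of spleen and lymph nodes of mice 6 to 8 weeks old, which were positively selected for CD4 and then put through repeated sorting on GFP. The TN group (n = 3) is naive CD4 T cells that lack Foxp3, the lineage factor of regulatory T cells. The Treg group (n = 5) is CD4 T cells with Foxp3. The GFPKO group (n = 3) is GFP-positive CD4 T cells of Foxp3GFPKO/WT mice, which carry a wild-type Foxp3 allele and a null allele that reports its own transcription by GFP, so GFP marks cells that use the null allele in animals that also have cells using the normal one. The labels give no genotype or strain for the TN and Treg mice and do not say which GFP reporter was used to sort them, and they do not state that arrays of a group came from different animals. The p-values therefore rest on the spread among these arrays alone, and that spread may be technical.

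S100 proteins are small EF-hand proteins that mostly bind calcium and act as dimers on cytoskeletal and membrane targets. Annexins bind acidic phospholipids in a calcium-dependent way, and S100A10 holds annexin A2 in a complex at the plasma membrane. Galectins bind beta-galactoside sugars on glycoproteins, including those of the T cell surface, and galectin-1 is known as a mediator made by regulatory and activated T cells. Many genes of these families are known to be higher in effector, memory and regulatory T cells than in naive ones.

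Some facts of the whole series bear on every comparison. Over the 18193 genes the arrays correlated at 0.994 to 0.995 within TN, 0.990 to 0.997 within Treg and 0.979 to 0.990 within GFPKO, the least alike group. Of 5 CD4 T cell markers Cd3d, Cd3e, Cd3g and Cd4 were not called in any comparison, although Cd4 was called lower in Treg than in GFPKO after median centring (-0.59, adjusted p = 0.0296). Cd28 was called lower in Treg than in TN (-0.63 ± 0.17, adjusted p = 0.0237) and than in GFPKO (-0.73 ± 0.17, adjusted p = 0.0118). In Treg against TN, 5 of 6 Treg markers were called higher, with log2 values of Il2ra at 3.56 ± 0.36 in the TN group (mean and SD, n = 3), 9.18 ± 0.13 on the Treg arrays (n = 5) and 8.41 ± 0.20 for GFPKO (n = 3). The exception was Foxp3, whose probe set read 3.48 ± 0.45, 3.47 ± 0.16 and 6.93 ± 0.23 in the same order, so the Treg arrays do not bear out their label in this gene, and what is said of Treg below depends on the label. Xist was high and 3 genes of the Y chromosome (Eif2s3y, Kdm5d and Uty) were low on all 3 GFPKO arrays only, so sex and genotype cannot be told apart in comparisons with GFPKO. Each difference below is in log2 units with its standard error (SE) from limma, and a gene was called where the p-value, adjusted by Benjamini-Hochberg over all 18193 genes, was under 0.05.

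In Treg against TN, 6 of the 9 measured members were called higher: S100a4, S100a6, S100a10, Anxa2, Lgals1 and Lgals3. Of all genes 6.54% were called higher in this comparison. Anxa5 was called lower, against 3.42% of all genes, and Anxa1 and Anxa6 were not called. The median log2 difference was 0.77 over the 9 members and 0.03 over all genes. The background includes many dim genes. In a fit of only the 9511 genes with a mean above 5 in a group, 1074 were called higher, 6 of them members, and 627 lower. In GFPKO against TN only Anxa2 was called among the members, higher in GFPKO, with 2.64% of all genes called higher and 3.02% lower. No member was called lower by limma there, while 2 were lower and 2 higher at an unadjusted p under 0.05. The members' median was -0.15, beside -0.04 over all genes. In Treg against GFPKO the S100 genes S100a4, S100a6 and S100a10 were called higher in Treg, with 6.88% of all genes called higher and 2.55% lower. By its main value, no member was called lower by limma in this comparison, nor was any at an unadjusted p under 0.05. The median was 0.51 over members against 0.08 over all genes. The members' calls in these 3 comparisons were the same when each array was centred on its own median. That centring moved every Treg minus TN difference by -0.14 and every Treg minus GFPKO difference by -0.17. It changed the share of all called genes that were higher in Treg from 65.6% to 43.5% against TN and from 73.0% to 42.9% against GFPKO. The 3 comparisons share their arrays pairwise, so they are not independent of each other. In bulk RNA of this kind, a smaller share of expressing cells and less RNA per cell cannot be told apart.

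**Figure D1:**
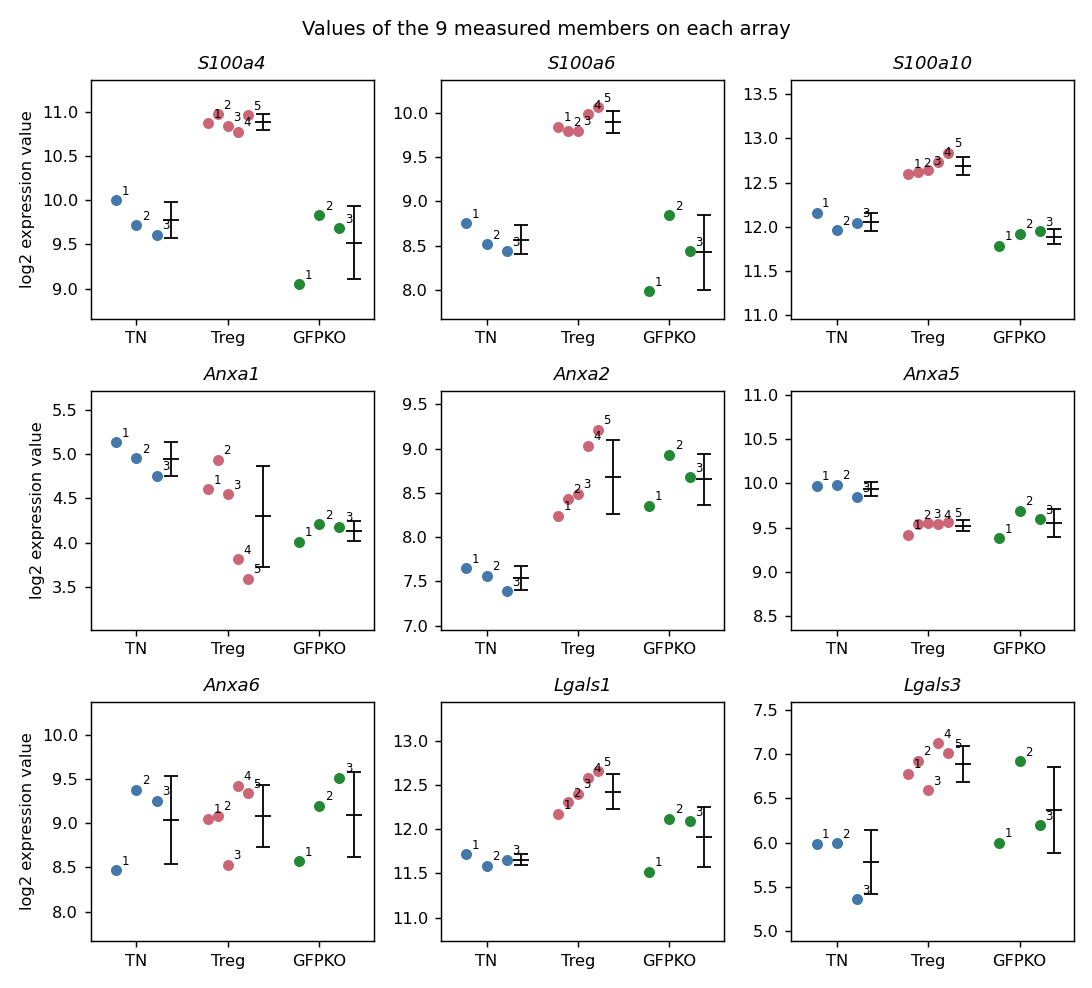
Log2 expression value of each of the 9 measured members (vertical axis, with the same span in each panel) on every TN, Treg and GFPKO array, with numbered points for replicates and bars for the group mean and SD. All 5 Treg values of S100a4, S100a6 and S100a10 lie above those of both other groups, whereas Anxa2 is high in both Treg and GFPKO.

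**Figure D2:**
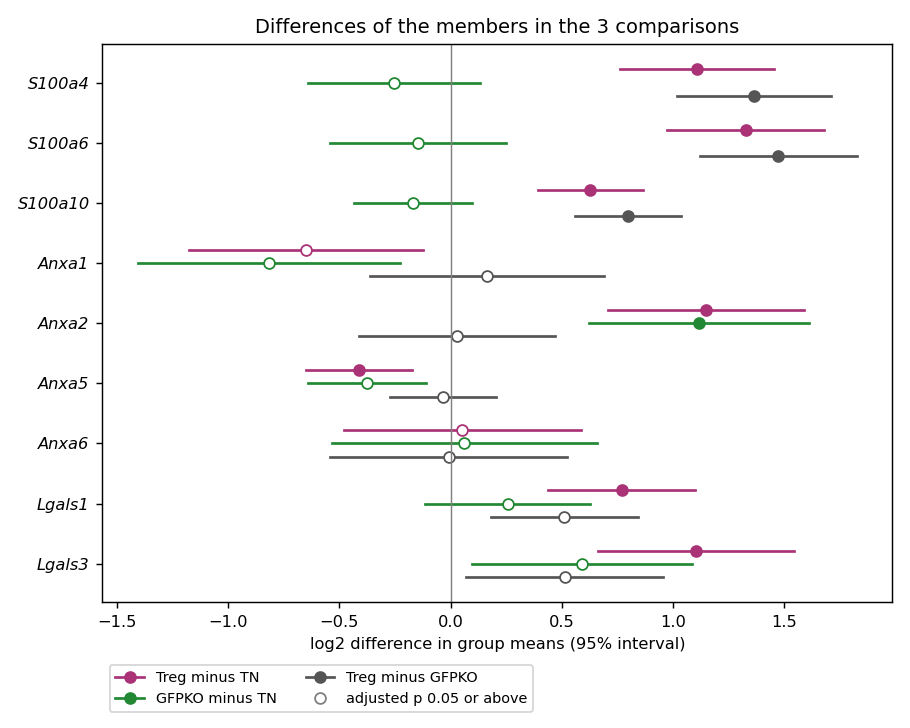
Log2 difference in group means for the 9 members in the 3 comparisons (horizontal axis), with 95% intervals from limma; filled points are called at an adjusted p under 0.05. The S100 genes are filled for both comparisons with Treg, and Anxa2 for both comparisons with TN.

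S100a4, which binds the heavy chain of non-muscle myosin and is known from motile cells, read 9.998, 9.72 and 9.61 on the TN arrays (replicates in number order). It read 10.87, 10.97, 10.83, 10.77 and 10.96 on the Treg arrays and 9.05, 9.83 and 9.68 on the GFPKO arrays. Every Treg array lay above every array of the other groups, and TN and GFPKO overlapped. The difference of Treg minus TN was 1.11 ± 0.16 (SE, adjusted p = 0.000204), a 2.16-fold higher level. Treg minus GFPKO was 1.36 ± 0.16 (adjusted p = 6.92e-05), or 2.57-fold. GFPKO minus TN was -0.26 ± 0.18 (adjusted p = 0.567), with a 95% interval from -0.64 to 0.13.

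S100a6, also called calcyclin, is a partner of annexins and of the calcyclin-binding protein. It read 8.75, 8.52 and 8.43 in TN, 9.84, 9.79, 9.80, 9.98 and 10.06 in Treg, and 7.99, 8.84 and 8.44 in GFPKO. Again the Treg arrays stood clear of both other groups, which overlapped each other. S100a6 had the widest range of group means among the members, at 1.47. Its level was 2.51-fold higher in Treg than in TN (1.33 ± 0.16, adjusted p = 4.14e-05) and 2.78-fold higher than in GFPKO (1.47 ± 0.16, adjusted p = 3.82e-05). GFPKO minus TN was -0.15 ± 0.18 (adjusted p = 0.798, interval -0.54 to 0.25).

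S100a10, the S100 protein that has lost calcium binding and stays bound to annexin A2, read 12.16, 11.96 and 12.04 in TN. Its Treg values were 12.60, 12.62, 12.64, 12.73 and 12.84, and its GFPKO values 11.79, 11.92 and 11.95. The 3 groups did not overlap, with GFPKO lowest, TN next and Treg highest, but the step from GFPKO to TN was small. Treg minus TN was 0.63 ± 0.11 (1.55-fold, adjusted p = 0.00114) and Treg minus GFPKO 0.80 ± 0.11 (1.74-fold, adjusted p = 0.000303). GFPKO minus TN was -0.17 ± 0.12 (adjusted p = 0.590), so these neighbours in the order did not differ by the test. A second bright S100a10 probe set gave 0.54 ± 0.12 for Treg minus TN (adjusted p = 0.0122 over all probe sets) and 0.59 ± 0.12 for Treg minus GFPKO (adjusted p = 0.00844). The dimmest of its 3 probe sets, with a TN mean of 5.71, gave 0.34 ± 0.16 and 0.33 ± 0.16 and was not called in either (adjusted p = 0.268 and 0.236).

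S100a4 and S100a6 lie close together in the S100 gene cluster on chromosome 3, where only S100a5 stands between them in RefSeq's gene order, and S100a10 and S100a11 are neighbours elsewhere on that chromosome. The promoters of S100a4 and S100a6 are shown because these genes had the widest ranges of group means among the members and differed in the same direction in both comparisons with Treg. Each sequence runs from 250 bases before to 50 bases after the gene's RefSeq start (build GRCm38.p6) at chr3:90603520-90603819 and chr3:90612644-90612943, both on the plus strand, 5′ to 3′. Capitals mark matches on either strand to TATAAA (the TATA box), TGAGTCA or TGACTCA (the AP-1 site, each form being the other read on the opposite strand), GTAAACA or ATAAACA (forkhead, the family of Foxp3) and GGGCGG (the GC box).
S100a4: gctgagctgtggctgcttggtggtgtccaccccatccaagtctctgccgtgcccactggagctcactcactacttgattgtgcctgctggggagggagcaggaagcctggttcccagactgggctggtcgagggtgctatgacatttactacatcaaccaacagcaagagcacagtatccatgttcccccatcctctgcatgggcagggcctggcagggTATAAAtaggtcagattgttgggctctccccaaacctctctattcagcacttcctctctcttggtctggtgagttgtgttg
S100a6: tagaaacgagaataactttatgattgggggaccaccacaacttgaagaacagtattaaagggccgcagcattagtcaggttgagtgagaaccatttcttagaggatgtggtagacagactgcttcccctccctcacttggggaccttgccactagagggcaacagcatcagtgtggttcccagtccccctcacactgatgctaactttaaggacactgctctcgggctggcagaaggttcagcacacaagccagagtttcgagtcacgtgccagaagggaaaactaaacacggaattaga
The S100a4 window holds a TATA box that begins at position -31, a match that 13.6% of the 32851 promoters of the same length also have. The S100a6 window holds none of the 4 motifs. No promoter of the 7 members in the RefSeq table (S100a4, S100a6, S100a11, Anxa1, Anxa2, Anxa5 and Lgals3) holds the forkhead letters, which 7.97% of all promoters do. A match is a description of letters and not of a bound site, and a missing match says only that the letters are not in this window.

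The genes beside these in the cluster were mostly dim. S100a5, which lies between S100a4 and S100a6, read 2.87 ± 0.04 in TN, 2.97 ± 0.15 in Treg and 2.87 ± 0.16 in GFPKO, and was not called. S100a8 and S100a9, the calprotectin subunits of neutrophils, had group means from 2.65 to 2.92 and were not called in any comparison. S100a1 was called higher in Treg than in TN (0.72 ± 0.15, adjusted p = 0.00450) and than in GFPKO (0.92 ± 0.15, adjusted p = 0.00108), from means of 4.43 in TN, 5.15 in Treg and 4.23 in GFPKO. S100a3 was called only in Treg against GFPKO (0.62 ± 0.18, adjusted p = 0.0407), a call that was lost when arrays were centred on their medians (0.46, adjusted p = 0.107). S100a13 was the only other S100 gene with a group mean above 7 (10.19 ± 0.10 in TN, 10.48 ± 0.18 in Treg and 10.09 ± 0.32 in GFPKO) and was not called.

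Anxa2 encodes the annexin that pairs with S100A10 at the plasma membrane and organises cortical actin and plasmin generation. It read 7.65, 7.57 and 7.39 in TN, 8.24, 8.43, 8.49, 9.03 and 9.22 in Treg, and 8.35, 8.93 and 8.68 in GFPKO. The TN arrays lay below all others, and the GFPKO arrays lay within the range of the Treg arrays. Treg minus TN was 1.15 ± 0.21 (2.22-fold, adjusted p = 0.00134) and GFPKO minus TN 1.12 ± 0.23 (2.17-fold, adjusted p = 0.00789). Treg minus GFPKO was 0.03 ± 0.21 (adjusted p = 0.955), with an interval from -0.41 to 0.47. The GFPKO call was lost without GFPKO replicate 2 (0.98, adjusted p = 0.0523). It was also lost when the gene's 3 probe sets were averaged (0.25, adjusted p = 0.489). The same averaging lowered Treg minus TN to 0.47 (adjusted p = 0.0390), still called. The other 2 probe sets had group means of at most 3.96 and were not called.

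The Anxa2 promoter (chr9:69453433-69453732, plus strand, GRCm38.p6) is shown because it was the only member called higher in GFPKO as well as in Treg. The marks are as above.
Anxa2: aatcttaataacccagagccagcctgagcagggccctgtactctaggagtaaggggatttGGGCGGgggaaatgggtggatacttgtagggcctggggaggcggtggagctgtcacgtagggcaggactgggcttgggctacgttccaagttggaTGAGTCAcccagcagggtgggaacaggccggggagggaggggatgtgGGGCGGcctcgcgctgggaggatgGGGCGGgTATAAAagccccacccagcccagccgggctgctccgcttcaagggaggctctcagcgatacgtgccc
The Anxa2 window has a TATA box from position -17, an AP-1 match from position -95 and 3 GC boxes. AP-1 matches occur in 5.20% and GC boxes in 35.7% of promoters of this length. The S100a11 window holds 2 AP-1 matches and 3 GC boxes, and the TATA letters are also in the S100a4 and Anxa1 windows.

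Anxa1, an annexin known for anti-inflammatory signals through formyl peptide receptors, read close to the middle of each array's values. It gave 5.13, 4.95 and 4.75 in TN, 4.60, 4.94, 4.54, 3.81 and 3.59 in Treg, and 4.01, 4.21 and 4.18 in GFPKO, where the median of all probe sets on an array was 4.07 to 4.16. The GFPKO arrays lay below all TN arrays, while Treg overlapped both groups. Treg minus TN was -0.65 ± 0.25 (adjusted p = 0.132) and GFPKO minus TN -0.82 ± 0.27 (adjusted p = 0.114), neither called. In 4 alternatives GFPKO minus TN was called, with the adjusted p at 0.00651 at the lowest, and Treg minus TN was called only without Treg replicate 2 (-0.81, adjusted p = 0.0372).

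Anxa5, which binds phosphatidylserine exposed on dying cells, was the only member called lower in Treg by its main value. The TN arrays read 9.97, 9.98 and 9.85, the Treg arrays 9.42, 9.54, 9.55, 9.54 and 9.56, and the GFPKO arrays 9.38, 9.69 and 9.60. Both other groups lay wholly below TN and overlapped each other. Treg minus TN was -0.41 ± 0.11, a 1.33-fold lower level (adjusted p = 0.0272). GFPKO minus TN was of like size at -0.38 ± 0.12 but not called (adjusted p = 0.105), and Treg minus GFPKO was -0.03 ± 0.11 (adjusted p = 0.895). The call against TN was lost when TN replicate 1, 2 or 3 or Treg replicate 1, 2, 3 or 4 was left out, with an adjusted p of up to 0.124, although the difference stayed between -0.45 and -0.38 when single arrays were left out.

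Anxa6, a large annexin of plasma membrane and endosomes, gave different answers by probe set. The brightest probe set read 8.47, 9.38 and 9.26 in TN, 9.05, 9.08, 8.53, 9.43 and 9.34 in Treg, and 8.57, 9.20 and 9.51 in GFPKO. The groups overlapped throughout, and Treg minus TN was 0.05 ± 0.25 (adjusted p = 0.947, interval -0.48 to 0.59). The next probe set, with a TN mean of 7.41, gave -0.04 ± 0.20. The other 2 probe sets of Anxa6 had all Treg arrays below all TN and GFPKO arrays. One of them read 7.10, 7.26 and 7.10 in TN, 6.79, 6.33, 6.60, 6.27 and 6.40 in Treg, and 7.43, 6.91 and 7.13 in GFPKO. It was called lower in Treg than in TN (-0.68 ± 0.15, adjusted p = 0.00954 over all probe sets) and than in GFPKO (-0.68 ± 0.15, adjusted p = 0.0115). The other gave -0.55 ± 0.13 (adjusted p = 0.0132) and -0.50 ± 0.13 (adjusted p = 0.0264). The place of these probe sets in the Anxa6 transcripts is not given in the tables used here, so a single level for Anxa6 is not stated.

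**Figure D3:**
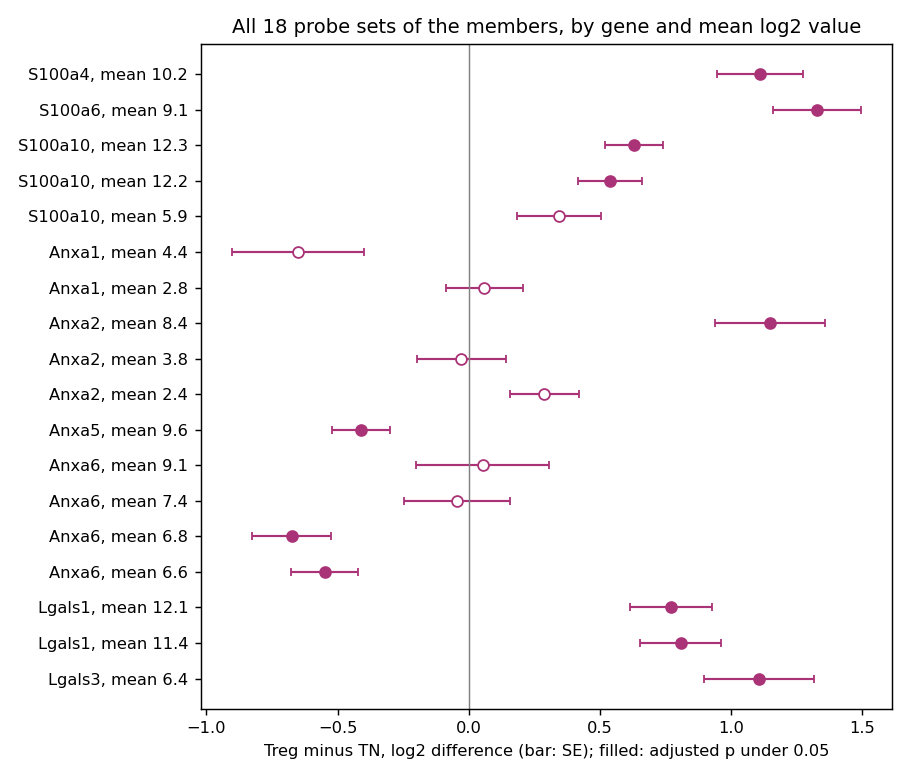
Log2 difference of Treg minus TN (horizontal axis, bars are SE) for all 18 probe sets of the 9 members, ordered by gene and then by mean log2 value; filled points are called at an adjusted p under 0.05 over all probe sets. The 2 bright Anxa6 probe sets lie near 0 and the 2 dimmer ones at -0.68 and -0.55, while both Lgals1 probe sets lie at 0.77 and 0.81.

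Lgals1 encodes galectin-1, which cross-links glycoproteins of the T cell surface. Its brightest probe set read 11.71, 11.59 and 11.66 in TN, 12.17, 12.31, 12.40, 12.58 and 12.66 in Treg, and 11.52, 12.12 and 12.09 in GFPKO. The Treg arrays lay above both other groups, and GFPKO had 1 array below TN and 2 above it. Treg minus TN was 0.77 ± 0.16 (1.71-fold, adjusted p = 0.00347). Treg minus GFPKO was 0.51 ± 0.16 (adjusted p = 0.0518), just outside the threshold, and its other probe set gave 0.65 ± 0.16 (adjusted p = 0.0187 over all probe sets) and was called. GFPKO minus TN was 0.26 ± 0.17 (adjusted p = 0.539), with an interval from -0.11 to 0.63.

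Lgals3 encodes galectin-3, a chimeric galectin that binds T cell receptor glycans and the inhibitory receptor Lag3. It read 5.99, 5.99 and 5.36 in TN, 6.78, 6.92, 6.59, 7.12 and 7.01 in Treg, and 6.00, 6.92 and 6.20 in GFPKO. Treg lay above TN on every array, and the GFPKO arrays spanned the gap between these groups. Treg minus TN was 1.11 ± 0.21 (2.15-fold, adjusted p = 0.00186). GFPKO minus TN was 0.59 ± 0.23 (adjusted p = 0.185) and Treg minus GFPKO 0.51 ± 0.21 (adjusted p = 0.146). The middle place of GFPKO was thus not separated from either neighbour. Without GFPKO replicate 2, the highest of its group, Treg minus GFPKO was called (0.79, adjusted p = 0.0283). With array weights, which gave that array a weight of 5.11, GFPKO minus TN was called (0.99, adjusted p = 0.000543) and Treg minus GFPKO was 0.03 (adjusted p = 0.897).

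The Lgals3 promoter (chr14:47373610-47373909, plus strand, GRCm38.p6) is given beside those above as the one promoter of a galectin member in the RefSeq table. The marks are the same.
Lgals3: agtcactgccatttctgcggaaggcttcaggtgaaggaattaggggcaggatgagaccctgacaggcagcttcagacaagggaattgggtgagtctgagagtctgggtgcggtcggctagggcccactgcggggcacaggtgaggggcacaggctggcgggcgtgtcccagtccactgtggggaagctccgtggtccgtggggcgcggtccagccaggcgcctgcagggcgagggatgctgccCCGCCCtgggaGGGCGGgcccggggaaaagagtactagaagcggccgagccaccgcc
It holds 2 GC boxes, from positions -7 and 5, and none of the other 3 motifs.

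Exact permutation tests of single members, two-sided, gave p = 0.0357 for Treg against TN for S100a4, S100a6, S100a10, Anxa2, Anxa5, Lgals1 and Lgals3. In Treg against GFPKO they gave the same value for S100a4, S100a6, S100a10 and Lgals1. This is the smallest value that the two-sided form used allows for 5 against 3 arrays. Any gene whose 2 groups do not overlap reaches it, and the share of all genes that do was not counted. In GFPKO against TN the exact permutation test of 3 against 3 arrays cannot go below p = 0.1. It gave that value for S100a10, Anxa1, Anxa2, Anxa5 and Lgals3, of which limma called only Anxa2. The share of all genes that reach it was not counted here either.

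Beyond the members, 23 of 27 other listed genes of the 3 families were measured: 10 S100 genes, 7 annexins and 6 galectins. The largest difference was in Anxa4, an annexin of epithelia and secretory cells. It read 4.41 ± 0.24 in TN, 6.55 ± 0.18 in Treg and 5.63 ± 0.23 in GFPKO (SD), and its 3 groups did not overlap. It was higher in Treg than in TN by 2.14 ± 0.15 (adjusted p = 9.81e-08), in GFPKO than in TN by 1.23 ± 0.17 (adjusted p = 0.000229) and in Treg than in GFPKO by 0.91 ± 0.15 (adjusted p = 0.00112). Anxa3 was called lower in Treg (-0.54 ± 0.14, adjusted p = 0.0175) and in GFPKO (-0.56 ± 0.15, adjusted p = 0.0412) than in TN, at group means of at most 3.15, below the array medians. Its GFPKO call was lost after median centring (adjusted p = 0.0534). Anxa9 was called higher in Treg than in GFPKO (0.49 ± 0.15, adjusted p = 0.0463), a call also lost after centring (0.33, adjusted p = 0.206).

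Of the S100 genes that are no members, S100a1 alone was called in Treg against TN. None was called by limma, or passed an unadjusted p of 0.05, in GFPKO against TN. The median was 0.09 and -0.14, beside 0.03 and -0.04 over all genes. S100a16 was called lower in Treg than in TN only after centring (adjusted p = 0.0475). No galectin outside the members was called by limma in any comparison. At an unadjusted p under 0.05, 1 galectin was lower in GFPKO than in TN, 1 was higher in Treg than in GFPKO and none passed in Treg against TN. Anxa7 (8.97 ± 0.05 in TN, 8.86 ± 0.10 in Treg and 8.75 ± 0.16 in GFPKO), Lgals8 (7.77 ± 0.04, 7.84 ± 0.21 and 7.98 ± 0.32) and Lgals9 (8.55 ± 0.41, 8.65 ± 0.28 and 8.92 ± 0.54) were the other family genes above 7.

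**Figure D4:**
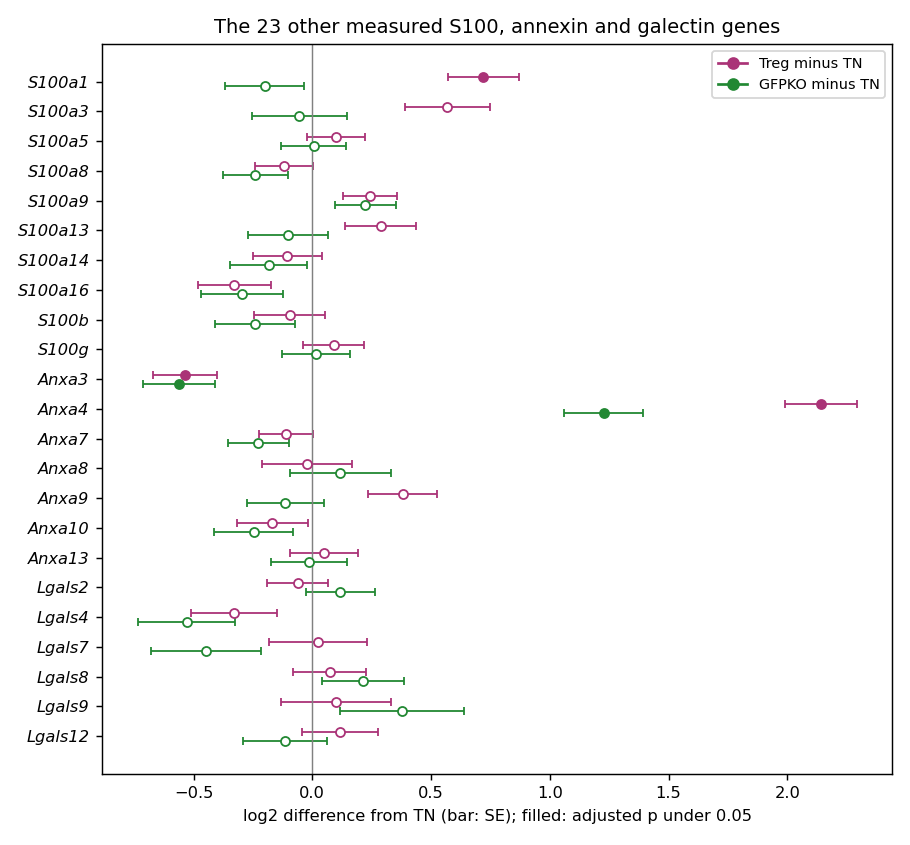
Log2 difference from TN (horizontal axis, bars are SE) of the 23 other S100, annexin and galectin genes in Treg and in GFPKO; filled points are called at an adjusted p under 0.05. Anxa4 stands farthest from 0 at 2.14 in Treg and 1.23 in GFPKO, and the galectins are all unfilled.

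Genes that work with the members were read as a list of 17 partners and receptors. In Treg against TN 4 were called higher (Ahnak, Mgat5, Lag3 and Cd44) and none lower by limma, and none was lower at an unadjusted p under 0.05. The list's median was 0.08, beside 0.03 over all genes. Ahnak, a giant scaffold protein that binds the complex of S100A10 and annexin A2, was called in the same comparisons as Anxa2. It was higher in Treg (1.10 ± 0.16, adjusted p = 0.000250) and in GFPKO (1.21 ± 0.18, adjusted p = 0.000643) than in TN, with Treg minus GFPKO at -0.11 ± 0.16 (adjusted p = 0.752). Mgat5, the glycosyltransferase that makes the branched N-glycans galectins bind, was called higher in Treg than in TN (1.13 ± 0.17, adjusted p = 0.000217) and than in GFPKO (0.95 ± 0.17, adjusted p = 0.00197). Its GFPKO minus TN difference was 0.18 ± 0.19 (adjusted p = 0.725).

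Lag3 had its highest level in GFPKO, with 4.86 ± 0.28 in TN, 6.44 ± 0.19 in Treg and 8.13 ± 0.45 in GFPKO (SD), and was called in all 3 comparisons. Cd44, an adhesion receptor of antigen-experienced T cells, was called only in Treg against TN (0.88 ± 0.15, adjusted p = 0.000843). Cd7, a receptor of galectin-1, was lower in GFPKO than in TN (-0.89 ± 0.21, adjusted p = 0.0161). It was higher in Treg than in GFPKO (0.67 ± 0.18, adjusted p = 0.0319), though not after centring (0.51, adjusted p = 0.0754). In GFPKO against TN 2 of the 17 partners were called higher and 1 lower, and in Treg against GFPKO 2 higher and 1 lower. After centring Lgals3bp, a secreted galectin ligand, was also called lower in Treg than in GFPKO (adjusted p = 0.0296).

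A list of 15 genes of antigen-experienced T cells showed changes in both directions. In Treg against TN 5 were called higher (Cd44, Cxcr3, Vim, Ahnak and Cd48) and 2 lower (Tagln2 and Id2), with a median of 0.32 beside 0.03 over all genes. Vim, the intermediate filament vimentin (0.42), and Cd48 (0.54) lost their calls after centring (adjusted p = 0.172 and 0.108). In GFPKO against TN Ahnak was the only gene called higher, and Cxcr3 (-1.58), Ccl5 (-4.11) and Tagln2 (-0.64) were called lower. In Treg against GFPKO Itgb1 (1.01), Cxcr3 (2.45) and Ccl5 (3.68) were called higher and Id2 (-1.51) and Il18r1 (-1.47) lower. Of the called genes named here, only Cxcr3 and Itgb1 shared the order of the S100 members' group means, with GFPKO lowest and Treg highest. Crip1, not called in any comparison, had the same order (12.66 in TN, 12.68 in Treg and 12.53 in GFPKO). Cd44, Vim, Cd48 and Ahnak were lowest in TN, Ccl5 and Tagln2 were highest in TN, and Id2 and Il18r1 were highest in GFPKO.

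The genes with values most like those of the members were found by Pearson correlation over the 11 arrays among 4854 genes that spanned at least 1 log2 unit, for the 3 members with the widest range of group means. For S100a6 they were Alad (r = 0.983), Bid (0.977) and Odc1 (0.977). For S100a4 they were Alad (0.986), Odc1 (0.985) and Tmbim4 (0.982). Alad encodes an enzyme of heme synthesis, Bid a BH3-only death protein and Odc1 the first enzyme of polyamine synthesis. The group means of Odc1 were 8.94 in TN, 10.18 in Treg and 8.65 in GFPKO, the same order as for S100a4. For Anxa2 the nearest genes were Drc1 (0.961), Lif (0.945) and Plp2 (0.941), and the means of Plp2 were 8.63, 10.24 and 9.90. These correlations rest largely on 3 groups of arrays and are a description.

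Over the 11 arrays Pearson's r was 0.985 for S100a4 with S100a6, 0.965 for S100a4 with S100a10 and 0.974 for S100a6 with S100a10. Once the group means were taken out, the same values were 0.863, 0.557 and 0.689. Within groups S100a6 also correlated with Anxa5 (0.832), Lgals3 (0.828) and Lgals1 (0.816), above 2 of the 3 pairs of S100 members. The largest deviations of S100a4 and S100a6 from their group means were those of GFPKO replicates 1 (-0.47 and -0.44) and 2 (0.31 and 0.42). Anxa2 correlated with S100a10, its partner, at only 0.455 over all arrays but at 0.822 within groups. Lgals1 correlated with Anxa2 at 0.851 within groups and at 0.803 over all arrays. Anxa1 ran against Anxa2 in both views (-0.823 over all arrays and -0.694 within groups). All points share the array and its normalization.

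Within GFPKO, replicate 1 was the lowest array for all 9 members, by 0.47 below the group mean for S100a4 and 0.44 for S100a6. Replicate 2 was the highest for 7 of the 9. GFPKO replicate 1 also had the lowest median over genes of the 11 arrays (4.85, with 4.94 to 5.15 on the other arrays). Its difference between the 3′ and 5′ actin controls, a measure of RNA integrity, was 0.770, against 0.381 to 0.611 over TN and Treg, and that of GFPKO replicate 2 was 0.832. Without GFPKO replicate 1 Treg minus GFPKO was still called for S100a4 (1.13), S100a6 (1.26) and S100a10 (0.75). With the actin difference as a covariate the 11 called differences of members were called again. Within Treg, replicates 4 and 5 were the highest for S100a6, S100a10, Anxa2, Lgals1 and Lgals3 and the lowest for Anxa1, and they had the highest medians over genes of all arrays (5.14 and 5.15). Without both of them Anxa2 was still called higher in Treg than in TN (0.85).

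**Figure D5:**
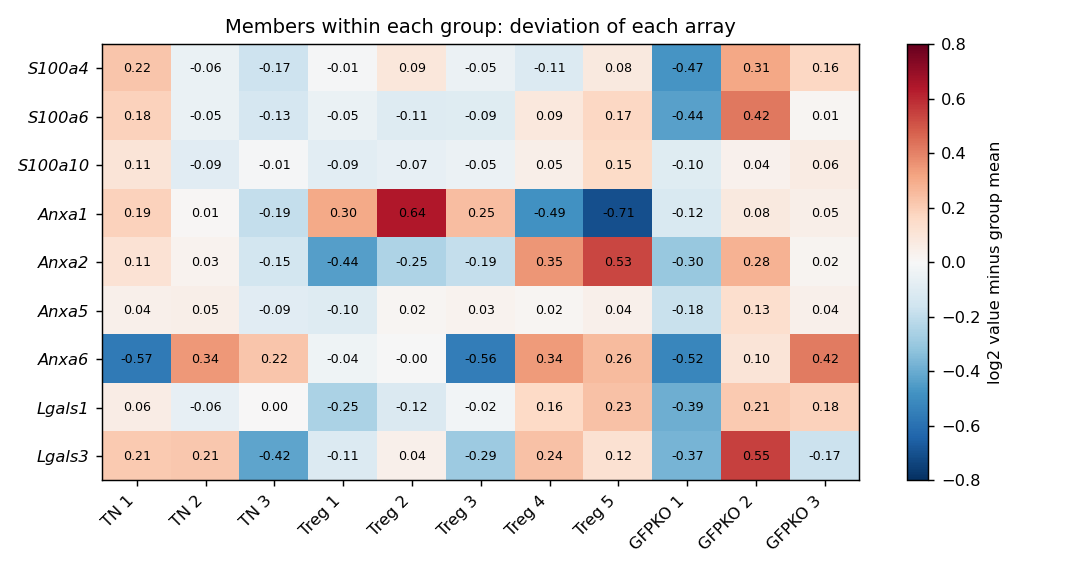
Deviation of each array from its group mean in log2 units (colour and printed value) for the 9 members, with arrays in columns. GFPKO replicate 1 is negative for all 9 members, and Treg replicates 4 and 5 are positive for Anxa2 and negative for Anxa1.

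Members such as Lgals3, S100a4 and Anxa2 are also made by myeloid cells, so markers of other cells were read beside them. Of 13 myeloid and dendritic markers 7 were called lower and 1 higher in Treg than in TN, and 7 lower in GFPKO than in TN. Their summed level, in log2, ran from 9.33 to 9.92 in TN, 8.30 to 8.98 in Treg and 8.19 to 8.80 in GFPKO. The marker that was higher in Treg was Lyz2, the lysozyme of macrophages (5.58 ± 0.52 in TN, 7.02 ± 0.70 in Treg and 6.57 ± 1.001 in GFPKO), not called after centring (adjusted p = 0.0762). Centring added a call for Cd68, lower in Treg than in TN (adjusted p = 0.0364). None of the 13 was called by limma in Treg against GFPKO, where 2 were higher and 1 lower at an unadjusted p under 0.05. After centring Mpeg1 was called lower in Treg than in GFPKO (adjusted p = 0.0280). None of 7 neutrophil markers was called by limma against TN, or passed an unadjusted p of 0.05, and their summed level was 6.40 to 6.59 in TN, 6.43 to 6.81 in Treg and 6.25 to 6.62 in GFPKO. Mmp9 was the 1 neutrophil marker called higher in Treg than in GFPKO (0.50), and not after centring.

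Of 5 NK markers 3 (Klrd1, Eomes and Prf1) were called lower in both Treg and GFPKO than in TN. The summed level of the 5 was 9.51 to 9.73 in TN, 6.88 to 7.01 in Treg and 6.74 to 6.99 in GFPKO. Klrd1 read 8.83 in TN, 3.15 in Treg and 3.96 in GFPKO, and Prf1 7.92, 5.71 and 5.32. Ncr1 and Klre1 had group means of at most 3.20. Klrd1 was also called lower in Treg than in GFPKO (-0.81 ± 0.20, adjusted p = 0.0174). The source of Klrd1 and Prf1 on the TN arrays was not tested, so what is said of TN also depends on its label. Of 7 B cell markers 1 was called higher (Cd79b) and 1 lower in Treg than in TN. In GFPKO against TN 1 was higher and 2 lower, and in Treg against GFPKO 2 were higher. Their summed level was 7.16 to 7.32 in TN, 8.22 to 8.54 in Treg and 6.95 to 7.42 in GFPKO. Cd79b read 4.36 in TN, 7.63 in Treg and 6.01 in GFPKO. The Treg minus TN differences of the remaining B cell markers ran from -0.87 (Ms4a1) to 0.16 (Pax5). Of the 2 CD8 markers, Cd8b1 was called lower in GFPKO than in TN and, after centring only, in Treg than in TN. None of 6 erythroid and platelet markers was called by limma, with 1 higher in Treg than in GFPKO at an unadjusted p under 0.05. The part of these markers in the members' levels was not tested. The 3 measured naive markers Ccr7, Lef1 and Il7r were all called lower in Treg than in TN, and Lef1 and Il7r in GFPKO.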

How the data were processed

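RNA of sorted mouse CD4 T cells was labelled with biotin and hybridised to Affymetrix arrays, per the labels' protocols, in 11 samples (3 TN, 5 Treg and 3 GFPKO, grouped by title). The deposited values are log2 expression values per probe set made by the authors with RMA, per the submitters' processing notes, which corrects background and normalizes by quantiles. Its version is not given in the sources used here. The log2 scale was read from the values (1.54 to 14.65). Quantile normalization forces arrays to a common distribution, so shifts shared by most genes are not measured, and RMA gives no detection calls.

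Of 45101 probe sets, 64 controls, 932 with several gene symbols and 9160 not in the gene table were left out. The remaining 34945, of which 34741 matched RefSeq by Entrez ID, gave 18193 genes, each by its brightest probe set. No gene was filtered out. A limma 3.58.1 model (R 4.3.3) with 1 mean per group was fitted over all 11 arrays without covariates and with empirical Bayes moderation. P-values were two-sided, adjusted by Benjamini-Hochberg over all genes and called under 0.05. The fit was tested on simulated data with known changes in Treg only. Those values were drawn independently for each gene and array, so array effects shared by many genes were not covered. Exact permutation tests used SciPy 1.17.1. Precision is limited by how few arrays each group has.

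The members and gene lists were chosen with earlier results of these data known. Named genes were the members, family genes called or with a group mean above 7, partners and antigen-experienced genes that were called, and the 3 genes nearest to each of the 3 members with the widest range. Alternatives were other probe set choices, median centring, a filter at a mean of 5, 2-group fits, other moderation, array weights, a replicate block, an actin covariate, leaving out arrays and 2 sets of arrays added after seeing the data.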

Additional observations from a re-analysis of the deposited data

Results flagged for a closer look

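Anxa5 in Treg replicate 1 read 9.42 on the log2 scale, apart from the other 4 Treg arrays, which lay between 9.54 and 9.56. It met Dixon's criterion for a value that stands apart in a group of 5, which chance alone meets in about 1 of 20 groups. The criterion was applied to the Treg values of each of the 9 measured members, so a flag among them is less rare than that. Without Treg replicate 1 the Treg minus TN difference of Anxa5 was -0.38 (adjusted p = 0.0538), and it was not called.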

How the results depend on the processing

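In 22 alternatives, 2 of them chosen after seeing the data, 9 of the 11 called member differences kept their direction and call. The exceptions were Anxa5 in Treg against TN and Anxa2 in GFPKO against TN. Fits of 2 groups, other moderation, the filter on dim genes and fitting all probe sets leave a gene's difference as it was. So does leaving out an array of the group not compared. In those alternatives only the p-value could move, so a kept direction there was fixed in advance. Of 591 member values 12 lost and 15 gained a call, and 32 changed sign, with none of these called in either fit. The cause of these changes was not tested. Same-numbered arrays correlated in their deviations from group means at 0.21, -0.03 and -0.14 (TN and Treg), 0.16, 0.07 and 0.06 (TN and GFPKO) and 0.51, -0.07 and -0.22 (Treg and GFPKO), so not every pair was over 0.1 and the numbers were not used as pairs; the 3 pairs of replicate 1 were all over 0.1, and whether those arrays share a factor was not tested. With the replicate number as a block, 0 members were lower in Treg than in TN and 1 in GFPKO than in TN, 752 genes were higher and 297 lower in Treg than in GFPKO, and Treg minus TN was -0.15 for Anxa6 and Treg minus GFPKO -0.26 for Anxa2. Only Treg has replicates 4 and 5, so the block takes those arrays out of the differences. The differences under the block are therefore the same as those without Treg replicates 4 and 5, given below. Leaving out 1 array gave 6 members higher and 0 to 1 lower in Treg against TN, 0 to 1 higher and 0 lower in GFPKO against TN, and 3 to 4 higher and 0 lower in Treg against GFPKO. Over all genes it gave 865 to 1464 higher and 388 to 934 lower, 355 to 644 and 271 to 1224, and 782 to 2414 and 282 to 1007, in the same order. It moved Anxa6 from -0.23 to 0.23, -0.22 to 0.32 and -0.27 to 0.20 in that order, S100a6 in GFPKO minus TN from -0.36 to 0.072, and in Treg minus GFPKO Anxa2 from -0.12 to 0.17 and Anxa5 from -0.12 to 0.034. Without Treg replicates 4 and 5, members lower numbered 0 against TN and 1 in GFPKO against TN, genes lower in Treg than in TN 412, and genes higher and lower in Treg than in GFPKO 694 and 235, with Anxa6 at -0.15 and Anxa2 at -0.26. Without TN and GFPKO replicate 1, 0 members were lower in Treg than in TN, 266 genes lower in GFPKO than in TN and 758 higher in Treg than in GFPKO, with Anxa6 at -0.23 (Treg minus TN), Anxa2 at -0.12 (Treg minus GFPKO), and S100a4 at 0.092 and S100a6 at 0.16 (GFPKO minus TN). Array weights gave 3 members higher and 2 lower in GFPKO than in TN, 1837 and 1386 genes higher and lower in Treg than in TN, 2118 and 2933 in GFPKO than in TN, and 4424 and 2332 in Treg than in GFPKO, with Anxa6 at -0.037, Anxa2 at -0.28, S100a4 at 0.0055 and S100a6 at 0.21 in the same comparisons. Averaging probe sets left 0 members higher in GFPKO than in TN, with Anxa6 at -0.30. Fitting all probe sets gave 1092 lower in Treg than in TN, 729 higher in GFPKO than in TN and 1296 lower in Treg than in GFPKO. Centring gave 1174 lower in Treg than in TN and 675 higher and 899 lower in Treg than in GFPKO, with Anxa6 at -0.089, and Anxa1 at -0.0007 and Anxa2 at -0.14 in Treg minus GFPKO. Fitting only the groups compared gave 1 member lower in GFPKO than in TN, 1010 genes lower in Treg than in TN, and 311 higher and 251 lower in GFPKO than in TN. The actin covariate gave 229 lower in GFPKO than in TN and 584 higher and 227 lower in Treg than in GFPKO, with Anxa2 at -0.0076 and Anxa6 at 0.0009. Anxa1 was not tested under the filter on dim genes. The arrays give no detection calls, so the values of dim probe sets could not be set against background.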
